A study of Mus musculus with 4 samples.

Results

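The long intergenic noncoding RNA (lincRNA) interval probes of a mouse expression array are described here in kidney after bile duct ligation or a sham operation. They are the non-control probes whose systematic name is a stretch of the mm9 genome, given as chromosome, start and end, followed by F or R. The rule took 16181 of 55681 non-control probes, every one with a name that starts with A_30_P, and the other 39500 non-control probes are called the other probes. F and R are read as the strand of the interval, which the files do not spell out. After 2 probes with a rejected spot were left out, 16179 were analysed. They covered 3540 intervals, 1066 with probes to both strands, 1252 to F only and 1222 to R only, which makes 4606 strands of intervals.

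Bile duct ligation (BDL) stops bile from leaving the liver and so models cholestasis, and the series concerns how the kidney adapts to it. Total RNA was taken from mouse kidney 2 weeks after BDL (2 arrays) or a sham operation (2 arrays), and the design text calls the replicates biological. Every group is named by operation and tissue alone, and the labels used here give no strain, sex or age. Samples carried a single dye, Cy3, and each had an array of its own.

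LincRNAs are transcripts that lie between protein-coding genes and hold no long reading frame. Many are spliced and polyadenylated like messenger RNA, and as a class they are present at lower levels and in fewer tissues than mRNA. Some act in the nucleus on chromatin or on neighbouring genes and others act in the cytoplasm, while for most no function is known. In catalogues built from chromatin marks, an interval marks a stretch in which transcription is thought to occur, and neither its exons nor its strand need be known, so arrays can carry probes along both strands.

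An interval is therefore a region, not a transcript model. Interval length ran from 62 to 7128487 bp with a median of 7316 bp, and 2101 intervals overlapped another one. A strand carried between 1 and 10 probes, with a median of 3. The files hold no probe sequence, and the position of a probe within its interval and its place relative to exons, introns or untranslated regions were not analysed here. Probes of overlapping intervals, or of repeated sequence, can share a target.

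All 8 kidney markers measured, among them Umod of the thick ascending limb, Slc34a1 of the proximal tubule and Aqp2 of the collecting duct, were well above background on all 4 arrays. Several other lists moved with the operation or with 1 array. All 5 measured red blood cell genes were higher in BDL on the mean, and the log2 of their summed signal was 7.89 and 7.45 in sham and 9.23 and 8.39 in BDL. Of 9 measured interferon response genes, 1 was higher and 8 were lower in BDL, with log2 sums of 4.90 and 3.54 in sham and 3.20 and 2.81 in BDL. The 6 urothelial genes summed to 1.43, 3.01, 5.85 and 0.33 and the 4 adipocyte genes to 3.88, 4.89, 7.43 and 3.83 on sham 1, sham 2, BDL 1 and BDL 2, so BDL 1 was high for both. Of the other lists, 0 of 5 B and plasma cell genes, 1 of 5 T and NK cell genes, 1 of 4 macrophage genes and 1 of 5 hepatocyte genes were higher in BDL, and Apoa1 was undetected on all 4 arrays. The part of any of these in the interval values was not tested. RNA came from whole tissue, so fewer cells of a type and less RNA per cell cannot be told apart.

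Fewer interval probes than other probes gave a signal. The scanner software's call of a spot well above background was met by 38.2% and 45.3% of the interval probes on the sham arrays and by 39.9% and 46.8% on the BDL arrays. For the other probes these shares were 64.2% and 67.6% in sham and 65.3% and 68.5% in BDL, higher on each of the 4 arrays. In both groups replicate 2 detected more interval probes than replicate 1, and that gap was wider than the gap between the groups. Across the 4 arrays 5573 interval probes (34.4%) were detected on every array and 7738 (47.8%) on none, while 1300 were detected on 1 array, 770 on 2 and 798 on 3. A probe was retained for the comparison if sham 1 and sham 2, or BDL 1 and BDL 2, both detected it, a rule that kept 6507 interval probes (40.2%) against 65.3% of the other probes.

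R probes were detected more often than F probes on every array. The shares were 36.9% and 43.1% for F and 39.5% and 47.6% for R in sham, and 38.0% and 44.8% for F and 41.8% and 48.8% for R in BDL. Retained were 3127 of 8171 F probes (38.3%) and 3380 of 8008 R probes (42.2%). Detection also varied along the genome, from 31.4% of the probes retained on chromosome 9 to 47.8% on chromosome 19. On 14 of 20 chromosomes the R share lay above the F share and on the other 6 below it. The widest gap was on chromosome 16, with 34.5% of F and 55.3% of R probes retained, followed by the X chromosome with 32.4% and 45.3% and chromosome 19 with 41.2% and 53.4%, while on chromosome 8 the 2 shares differed by 0.041 points. Across 4 length classes of equal numbers of intervals, from the shortest to the longest, 36.0%, 43.5%, 41.0% and 39.3% of the probes were retained, with no steady trend. Probes of 1 interval are not independent, so these shares are descriptions and carry no test.

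Probes to the same strand of an interval often disagreed on whether anything was there. Of 2543 strands with 2 to 4 probes, 517 (20.3%) had all probes retained, 909 (35.7%) had none and 1117 (43.9%) had some. Of 1374 strands with 5 to 10 probes, 104 (7.57%) had all retained, 257 (18.7%) none and 1013 (73.7%) some. Strands with 1 probe were retained in 295 of 689 cases (42.8%).

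Most intervals probed on both strands gave a signal from both. Of the 1066, 594 (55.7%) had a retained probe on F and on R, 177 (16.6%) on F only, 199 (18.7%) on R only and 96 (9.01%) on neither. Where the array carried 1 strand, 734 of 1252 F intervals (58.6%) and 748 of 1222 R intervals (61.2%) had a retained probe. A sharp strand contrast, with every probe of 1 strand detected on all 4 arrays and every probe of the other on none (dark), was found for 35 intervals, 20 with F detected and 15 with R. The interval chr4:123155515-123361565, with 3 R probes detected and 8 F probes dark, had the most probes of this kind. It was followed by chr14:77511189-77522852, with 5 F probes detected and 5 R probes dark, and chr16:93121505-93142255, with 5 R probes detected and 5 F probes dark.

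Another such interval, chr1:193875525-193978800, had 2 R probes detected and 5 F probes dark. Levels are given as log2 signal relative to the array's 75th percentile, so 0 is the 75th percentile and each unit is a 2-fold step. Its R probe A_30_P01027122 stood at 6.99 and 6.14 in sham and 5.96 and 5.86 in BDL, while its other R probe ran from -2.42 to -1.98. The 5 F probes of that interval lay between -7.67 and -4.76 and were not detected on any array. The sham values of A_30_P01027122 lay above its BDL values, with a difference of -0.65 (SE 0.34, adjusted p = 0.87), and 0 of the detected probes of these 4 intervals had an unadjusted p under 0.05.

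For the comparison of BDL with sham, limma was fitted to all 32280 retained probes of the array, and interval probes were read from that fit. By limma with Benjamini-Hochberg adjustment, 0 interval probes had an adjusted p under 0.05 (the lowest was 0.162), beside 0% of all retained probes. At an unadjusted p under 0.05 there were 380 interval probes (5.84%), beside 5.65% of all retained probes. They were 143 higher in BDL (2.20%, beside 2.71% of all) and 237 lower (3.64%, beside 2.94% of all). These shares lie near those of the whole array.

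The split between higher and lower rested in part on 1 array. Without sham 2 there were 488 interval probes higher and 394 lower at an unadjusted p under 0.05, so the larger side turned. That is 13.6% of the interval probes beside 11.9% of all retained probes in the same setting. Without BDL 1 there were 84 higher and 167 lower, 3.86% beside 3.27%. The groups did not overlap, with BDL higher, for 865 interval probes (13.3%, beside 18.2% of all retained probes) and with BDL lower for 1492 (22.9%, beside 18.5%). With a mean difference of at least 2-fold as well, 76 were higher (1.17%, beside 1.55%) and 139 lower (2.14%, beside 1.93%). With normexp background correction, which pulls dim probes together, the 2-fold counts were 6 higher and 53 lower, and without sham 2 they were 342 and 293.

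Interval probes as a whole sat slightly lower in BDL. The median difference, BDL minus sham, was -0.05 on the log2 scale, beside 0.0095 for the other probes, and 3610 of the 6507 (55.5%) were lower in BDL. The F median was -0.07 and the R median -0.03. On 19 of 20 chromosomes the median was below 0, chromosome 2 being the exception at 0.04. Chromosome 2 was also the only one with more probes higher than lower at an unadjusted p under 0.05, 19 against 13, while 15 chromosomes had more lower and 4 had equal numbers. On chromosome 19, 1 probe was higher and 19 were lower, 9 of them from a single interval described below.

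Arrays of 1 group differed by more than this. The median of the interval probes on an array varied within the groups with a pooled SD of 0.0904, against the shift of -0.05 between them. The 2 sham arrays differed by over 2-fold in 814 interval probes (12.5%) and the 2 BDL arrays in 415 (6.38%), against 9.67% and 5.43% of the other probes. The median standard error of a difference was 0.264 and the median half-width of its 95% interval 0.697. Over the interval probes the correlation between the sham arrays was 0.952, while sham 2 and BDL 2 reached 0.969. One array stood at least 2-fold apart from the other 3 most often in sham 1, which was above them in 96 interval probes and below them in 142, against 70 and 24 for sham 2, 43 and 81 for BDL 1 and 29 and 48 for BDL 2.

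Small p values gathered among the dim probes. When the retained interval probes were split by mean signal into 3 classes of 2169, the dimmest held 205 of the 380 with an unadjusted p under 0.05, the middle class 74 and the brightest 101. The retention rule also lets in probes detected only in the group where they are high, and their part in this was not tested. With detection required on all 4 arrays, 256 interval probes had an unadjusted p under 0.05 (4.59%, beside 5.19% of all probes so detected). The median gap between the sham arrays fell from 0.406 in the dimmest class to 0.332 in the brightest. Detection in 1 group alone was rare, with 56 probes detected on both sham arrays and neither BDL array (0.346% of those analysed) and 80 the other way round (0.494%), beside 0.241% and 0.463% of the other probes. For such probes a fold is a lower bound, written "at least": the detected group's mean over a floor for the dark one. On each dark array that floor is the dimmest signal called well above background, or the probe itself if brighter, and the floors are averaged. The bound exceeded 1 for 56 sham-only probes, with a median of 1.68 and a highest value of 7.61, and for 75 BDL-only probes, with a median of 1.29 and a highest value of 4.59.

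Among the 10 higher probes with the smallest p and no overlap, 1 stood apart in size. Probe A_30_P01027230, to the R strand of chr12:55844075-55898175, stood at -2.19 and -2.24 in sham and at 1.92 and 1.72 in BDL. Its sham arrays lay close together, as did its BDL arrays, and the groups were far apart. The difference was 4.03 (SE 0.20, 95% interval 3.50 to 4.56), a 16.3-fold higher mean in BDL, with an adjusted p of 0.162. It was detected on all 4 arrays, and over the alternative settings its difference ran from 3.55 to 4.13 and its adjusted p from 0.085 to 0.63.

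Of the other 9 higher probes, 7 were dark on both sham arrays. Those with the largest bounds were at chr7:66574000-66577193 F (at least 2.21-fold), chr13:28952570-28953234 R (at least 2.03-fold), chr17:8718223-8949898 F (at least 2.03-fold) and chr10:120116843-120182671 F (at least 1.59-fold). All retained probes of the chr7, chr13 and chr17 strands, the picked ones included, were higher in BDL. Retention lets in probes detected in BDL alone, which fixes part of this. On the chr10 strand the other retained probes differed by -0.27 and 0.02. The bounds at chr14:76912477-76931702 F and chr1:167797581-167803031 R were at least 1.24-fold and 1.23-fold, and the probe at chr9:100977450-100989325 F had a bound under 1 and is given no fold. The probe at chr1:193815525-193825775 R was detected on all 4 arrays, with -3.08 and -3.23 in sham and -1.75 and -1.94 in BDL, a difference of 1.31 (SE 0.21, adjusted p = 0.60). The last, at chr1:138528250-138538250 F, was detected on 1 of 2 sham arrays with a difference of 1.14, and 9 of 9 retained probes of that strand were higher in BDL, with a median of 0.44.

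Of the 10 lower probes with the smallest p, 5 were dark on both BDL arrays. At chr13:64018565-64082570 R, probe A_30_P01027927 stood at -3.06 and -3.12 in sham and at -7.02 and -6.92 in BDL, at least 4.12-fold lower. The other retained probe of that strand differed by 0.15. At chr13:44217172-44224947 R, probe A_30_P01027396 stood at -3.21 and -2.81 in sham and -7.08 and -7.45 in BDL, at least 4.35-fold lower. The limma adjusted p of each chromosome 13 probe was 0.162. It belongs to the fitted differences of -3.88 and -4.26 and not to the bounds. Those differences use BDL values below the dimmest detected signals of the BDL arrays (-4.94 and -5.33). The remaining 3 dark probes were at least 7.61-fold lower at chr2:10237649-10287591 F, at least 4.05-fold lower at chr15:75865380-75876541 F and at least 1.80-fold lower at chr12:12876192-12918398 F. On the chr2 strand the other retained probe differed by only -0.06. For 5 of the 10 no other probe of the strand was retained, and the adjusted p of the 10 ran from 0.162 to 0.410.

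The 5 lower probes detected in both groups have measured differences. At chrX:102222494-102267068 R the values were 1.89 and 1.74 in sham and -0.43 and 0.03 in BDL, a difference of -2.01 (SE 0.25), and the strand's other retained probe differed by -0.52. At chr9:81537835-81583227 R they were -0.23 and -0.47 in sham and -2.95 and -2.69 in BDL, a difference of -2.46 (SE 0.22). The 4 retained probes of that strand had a median difference of only -0.29, and 1 was higher in BDL, by 0.33. At chr1:52706748-52712402 R, detected on 1 of 2 BDL arrays, the values were -0.29 and -1.33 in sham and -5.14 and -4.89 in BDL. In all 3 the groups did not overlap, which is how the probes were picked. An F probe on chromosome 18 differed by -1.62, and the last, on chromosome 15, belongs to a strand described below.

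Of these 20 probes, 16 moved by over 1.5 times under normexp background correction, where their absolute differences ran from 0.24 to 3.55. The 2 dark probes on chromosome 13 differed by -1.33 and -1.46 there, and the chrX probe by -1.84. The direction of the 20 held in every setting that gave a value, but they were picked for groups that do not overlap, which fixes much of that.

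Other probes of the same strand give a readout of the same RNA, if the interval holds a single transcript. Over 6819 pairs of retained probes from 1720 strands, 4460 pairs (65.4%) had differences of the same sign. Pairs of other probes with the same systematic name shared a sign in 69.3% of 4873 pairs. The gap between the 2 sham arrays, in which no operation differs, shared a sign in 67.5% of the interval pairs, and the gap between the BDL arrays in 64.5%. The share for the operation thus lay between those for 2 arrays of 1 group, and all such pairs share their arrays. The median SD of the difference over the probes of a strand was 0.206, against 0.488 over all retained interval probes. Of 934 strands with at least 3 retained probes, 387 (41.4%) had every probe on the same side of 0.

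Probes with a small p had mates that leaned the same way more often, at a smaller size. Of the 380 probes with an unadjusted p under 0.05, 295 had another retained probe on their strand, and 78.1% of these mates had the same sign, beside 65.4% for all retained probes. Their median difference in the probe's own direction was 0.44, against a median of 0.87 for the probes themselves. In 222 of the 675 pairings the mate also had an unadjusted p under 0.05 and the same sign, and such pairs count from both sides. A probe and its mate share their arrays and the retention rule, and the part of this in the 78.1% was not tested. On the opposite strand 59.5% of the probes had the same sign, beside 52.5% for all. That share was 64.2% for probes lower in BDL and 51.2% for those higher. Of all retained interval probes 55.5% were lower and 44.5% higher in BDL, so a lower probe meets its own sign more often. Whether the directions differ beyond that was not tested.

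Across intervals, F and R differences were nearly uncorrelated. Of 594 intervals with retained probes on both strands, the mean differences of F and R had the same sign in 323 (54.4%), and the correlation between them across intervals was 0.084. For the gap between the sham arrays the share was 55.4%, and between the BDL arrays 50.5%. At least 1 F and 1 R probe had an unadjusted p under 0.05 in 17 of the 594 intervals.

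On 47 of 1720 strands, at least 2 probes had an unadjusted p under 0.05 and the same sign, 20 strands higher and 27 lower in BDL. The most probes were at chr19:23068397-23190256 R, an interval of 121860 bp. There 7 of 8 retained probes had an unadjusted p under 0.05, with differences from -3.67 to -2.18. Of the 7, only A_30_P01018129 and A_30_P01017941 were detected on both BDL arrays. The -3.67 came from A_30_P01031747, at -7.04 on BDL 1, below the dimmest detected signal of that array (-4.94). Probe A_30_P01018129 of that strand, detected on all 4 arrays, stood at -0.76 and -0.29 in sham and at -3.54 and -2.69 in BDL, a difference of -2.59 (SE 0.37, adjusted p = 0.54). Probe A_30_P01017941 stood at -1.37 and -0.83 in sham and at -4.29 and -3.38 in BDL, a difference of -2.73 (SE 0.40, adjusted p = 0.54). For all 7 the BDL values lay below the sham values, and in both probes quoted replicate 2 was the brighter array of each group.

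The eighth retained probe of that strand did not follow. Probe A_30_P01026625 stood at -2.09 and -1.79 in sham and -2.02 and -1.83 in BDL, a difference of 0.02. The array holds 7 F probes of the interval, and the 2 retained differed downward, A_30_P01026837 by -3.31 and A_30_P01026105 by -1.42. The first was detected on 1 of 2 BDL arrays. Low BDL signal was thus seen on both strands. Under normexp 6 of these 7 R probes moved by over 1.5 times, to between -1.80 and -0.90. Of the 7, A_30_P01017874 was dark on both BDL arrays and at least 2.92-fold lower. The adjusted p of the 7 ran from 0.410 to 0.794.

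At chr15:38205154-38206196 F, an interval of 1043 bp with 3 probes, all 3 were lower in BDL. Probe A_30_P01029713 stood at 0.22 and 0.10 in sham and at -1.54 and -1.85 in BDL, a difference of -1.85 (SE 0.22, adjusted p = 0.40). Probe A_30_P01018797 stood at -0.37 and -0.38 in sham and -1.68 and -2.18 in BDL, a difference of -1.56 (SE 0.25). Probe A_30_P01030977 stood at 0.52 and 0.42 in sham and -0.69 and -1.10 in BDL, a difference of -1.36 (SE 0.24). All 3 were detected on every array, their groups did not overlap, and none moved by over 1.5 times in any setting.

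At chr12:55844075-55898175 R all 5 probes of the strand were higher in BDL, by 4.03, 1.45, 1.01, 0.93 and 0.89. Probe A_30_P01029490 stood at 4.71 and 4.19 in sham and 5.20 and 5.47 in BDL, a difference of 0.89 (SE 0.27, adjusted p = 0.86). A_30_P01017443 stood at 0.65 and 0.01 in sham and 1.85 and 1.71 in BDL, a difference of 1.45 (SE 0.29, adjusted p = 0.73). The 4.03 of A_30_P01027230 was thus not shared by the rest of its strand, whose groups also did not overlap. On the F strand of the interval the 3 retained probes were higher by 0.89, 0.54 and 0.54. A shorter interval inside it, chr12:55846405-55846628 R, had 1 retained probe with a difference of 0.02.

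The other 3 strands of this kind were less even. At chr15:62046023-62082530 F the 3 probes differed by -1.12, -0.98 and -1.11, and A_30_P01031483 stood at -2.27 and -1.87 in sham and -3.24 and -3.14 in BDL. Without BDL 1, A_30_P01029562 of that strand differed by -0.69 instead of -1.11. At chr12:33606225-33638225 F 2 probes differed by -2.44 and -2.12 and A_30_P01026084, dark in BDL, was at least 4.63-fold lower, but the sham arrays were far apart: A_30_P01031471 stood at 0.51 and -0.90 in sham and -2.50 and -2.77 in BDL. At chr17:8718223-8949898 F the differences of 2.39 and 2.33 came from probes dark on both sham arrays, at least 2.03-fold and 1.98-fold, and under normexp were 0.52 and 0.57. The detected probe of that strand stood at -2.46 and -2.29 in sham and -2.34 and -1.91 in BDL, a difference of 0.25.

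In 3 other intervals an F and an R probe both had an unadjusted p under 0.05. At chr17:46972160-46997919 the F probe A_30_P01024700 stood at 4.57 and 4.16 in sham and 2.96 and 2.84 in BDL, a difference of -1.46 (SE 0.24, adjusted p = 0.61). The other 7 retained F probes of that interval ran from -0.44 to 0.20, and all 7 retained R probes were higher in BDL, by 0.25 to 2.04. One of these R probes, A_30_P01019379, had an unadjusted p under 0.05, was dark on both sham arrays and at least 1.24-fold higher. At chr14:62263564-62307496 an R probe differed by 1.11 and an F probe by -0.70. At chr6:129151512-129208737 an R probe, dark on both BDL arrays, was 1.69-fold lower, a difference of -0.76 (SE 0.22). Its BDL values lay above the floors of those arrays, so this is its measured fold and not a lower bound. The F probe, detected on 1 of 2 BDL arrays, differed by -0.77.

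The interval on chromosome 6 also held probes that split the arrays across the operation. A_30_P01028919 stood at -1.75 and 0.19 in sham and at -0.33 and -2.02 in BDL, and A_30_P01018888 at -1.56 and 0.21 and at -0.23 and -1.85. In both, sham 2 and BDL 1 were high and sham 1 and BDL 2 low. A_30_P01022593 of the same strand ran the other way, with 1.29 and 0.68 in sham and 0.68 and 1.33 in BDL. Their differences between the operations were -0.39, -0.36 and 0.02, each smaller than the gap between the 2 arrays of either group.

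Probes with an unadjusted p under 0.05 were also counted by stretch of the genome. When intervals less than 100 kb apart were chained, they formed 1576 neighbourhoods. The 4 described were picked for the most such probes in 1 direction, so their counts follow from the choice. The most probes with an unadjusted p under 0.05 in 1 direction, 9 higher and 0 lower, lay in chr2:174787150-175701875, a stretch of 914.7 kb with 15 intervals and 27 retained probes. A_30_P01018973 of chr2:174943325-174966675 R stood at 0.23 and 0.15 in sham and 0.96 and 1.28 in BDL, a difference of 0.93 (SE 0.22, adjusted p = 0.80). A_30_P01029117 of chr2:175140765-175141331 R stood at 1.33 and 1.15 in sham and 1.92 and 2.36 in BDL, a difference of 0.90. A_30_P01019686 of chr2:175640275-175701875 F stood at 0.26 and 0.03 in sham and 0.79 and 1.20 in BDL, a difference of 0.86.

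In these 3 probes the BDL values lay above the sham values, with BDL 2 the highest. The 9 probes came from 4 intervals, of which chr2:174945941-174946507 lies inside chr2:174943325-174966675. Of the 9 probes, 8 were detected on all 4 arrays and differed by 0.77 to 0.93. The other, A_30_P01025581, dark in sham, was at least 1.28-fold higher. Over the whole stretch 18 of 27 probes were higher, and the R probes of chr2:175640275-175701875 ran from -0.08 to 0.13. The neighbourhood holds 2 intervals of exactly 567 bp, chr2:174945941-174946507 and chr2:175140765-175141331, and whether probes of the stretch share targets was not tested. BDL 1 stood above the other arrays in A_30_P01023471, at -5.46 and -4.84 in sham and -2.17 and -4.58 in BDL. It did so too in A_30_P01030337, at -5.24 and -4.25 in sham and -2.16 and -4.70 in BDL. That array was also high for urothelial and adipocyte genes, and a link to these 2 probes was not tested.

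The second stretch, chr19:23064968-23268776, spans 203.8 kb with 4 intervals and 20 retained probes, 9 of them lower at an unadjusted p under 0.05 and 0 higher. All 9 belong to chr19:23068397-23190256, and the intervals on either side differed less. The 3 F probes of chr19:23064968-23069896, which overlaps its edge, ran from -0.96 to -0.72, and the 7 probes of the 2 intervals at the far end ran from -0.67 to 0.15. The third stretch is the chromosome 12 interval already described, together with the shorter interval inside it. All 9 retained probes of the stretch were higher in BDL, 7 of them at an unadjusted p under 0.05. The probe of the shorter interval was higher by only 0.02.

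The fourth, chr12:89448550-89533975, spans 85.4 kb with 3 intervals and 9 retained probes, 8 of them lower in BDL. At an unadjusted p under 0.05 there were 6 lower, each on F, and the 1 retained R probe differed by -0.62. A_30_P01031942 of chr12:89448550-89461843 stood at -1.17 and -0.62 in sham and -4.18 and -2.77 in BDL, a difference of -2.58 (SE 0.54, adjusted p = 0.78). A_30_P01031910 of chr12:89479525-89503525 stood at -1.45 and -0.96 in sham and -4.17 and -2.87 in BDL, a difference of -2.32 (SE 0.50, adjusted p = 0.78). Both had the same order of arrays, with sham 2 highest and BDL 1 lowest. In the last interval, chr12:89519675-89533975, the 4 F probes ran from -0.96 to 0.01. The F medians of the 3 intervals, in genome order, were -2.24, -2.09 and -0.52, and the difference between them was not tested.

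The intervals measured by the most probes showed little. At chr16:43623581-43642715 all 20 probes, 10 to each strand, were detected on all 4 arrays. Their differences ran from -0.57 to 0.17 with a median of -0.13, and 0 had an unadjusted p under 0.05. On R 9 of 10 were lower in BDL and on F 4 of 10. At chr5:74487385-74497428 and chr17:26911397-26917047, 16 of 20 probes were retained, and at chr8:72663625-72673010, 16 of 18. Their differences had medians of 0.08, -0.12 and -0.04, and again 0 had an unadjusted p under 0.05. At chr5:74487385-74497428 the strands leaned apart, with 9 of 10 F probes higher and 5 of 6 R probes lower in BDL, by medians of 0.12 and -0.17. The difference between the strands was not tested.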

How the data were processed

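Per the submitters' processing notes, the scans were quantified in Agilent Feature Extraction 11.0.1.1. The deposited processed signal is a linear intensity that, per the file headers, had its background subtracted and was left unscaled between arrays. The authors' deposited value table holds intensities equal to that signal divided by 1 constant per array (709, 844, 739 and 939.8); its column medians were 0.328, 0.339, 0.329 and 0.330, its scale is linear and not centred per gene, and what set the constants is unknown. Control and outlier spots were left out; 0 spots were saturated. The log2 signal was analysed after subtracting the 75th percentile of the array (712, 849, 741 and 945), spots of 1 probe averaged.

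Probes detected on both arrays of at least 1 group, 32280 of 55668, were fitted in R 4.3.3 using lmFit and eBayes of limma 3.58.1 (a single term for the operation, two-sided, Benjamini-Hochberg over all 32280). With 2 arrays a side the smallest two-sided p of an exact permutation test is 0.333, so none was run. The number of arrays limits the precision. In simulations on these 32280 probes the fit recovered 0.2% of changes of 1 log2 unit, 1.2% of 2, 54.2% of 3 and 79.2% of 4, with 3.5 false calls per simulation. A fixed number of changes was planted, equally many of each size, and variances were drawn from limma's fitted prior whatever the signal. Other settings can give other shares, so these are not the recovery in the real data.

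Named are the 10 higher and 10 lower interval probes with the smallest p and no overlap, up to 6 strands with at least 2 probes of 1 sign at an unadjusted p under 0.05, up to 6 intervals with such a probe on F and on R, the 4 with the most retained probes, the 4 neighbourhoods with the most such probes, and 4 intervals detected on 1 strand only. Single probes quoted within these were chosen after their values were seen. The members and lists were chosen with earlier results of these data known. Alternatives were normexp on the median signals with an offset of 50, quantile scaling, another percentile, other filters, the deposited table, 1 probe per name, array weights, an intensity trend, a replicate block and leaving out each array. Marker symbols came from a RefSeq table of another build, used for names only; no genome or annotation of mm9 was used here.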

Additional observations from a re-analysis of the deposited data

How the results depend on the processing

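With 2 arrays per group, differences under 3 log2 units were rarely called in the simulations, and dim probes lie close to the detection limit, where values carry no order. In every setting 0 interval probes passed the adjusted threshold, with a smallest adjusted p from 0.0848 to 0.629 and, at an unadjusted p under 0.05, from 165 to 882 probes. The 380 probes with an unadjusted p under 0.05 became 253 with normexp, 655 with no filter on dim probes and 165 of 3046 with 1 probe per name. Leaving out 1 array gave from 251 (without BDL 1) to 882 (without sham 2). The 215 probes at least 2-fold apart without overlap became 59 with normexp, 94 with detection on all 4 arrays, 707 with no filter and 87 with 1 probe per name, and from 345 (without sham 1) to 635 (without sham 2) with 1 array left out. Same-strand agreement, 65.4%, was 66.5% with detection on all 4 arrays, 60.6% with no filter and from 63.9% to 68.8% with 1 array left out. Opposite-strand agreement, 54.4%, was 60.6% with normexp. The cause of these moves was not tested, apart from the number of probes each filter leaves. The median difference stayed below 0 in every setting, and relative to all probes it ran from -0.088 to -0.028. Detection on all 4 arrays kept 5573 interval probes. With the replicate number as a block, 402 probes had an unadjusted p under 0.05 and 0 passed the adjusted threshold. Samples of the same number deviated together with a correlation of 0.17 over the interval probes, and the labels do not say that the number pairs them. Of 53 named probes followed over the settings, 32 moved by over 1.5 times with normexp and 2 without BDL 1. In 663 values 0 reversed. The 53 were picked for a small p or for groups that do not overlap, which fixes much of that. Some probes quoted above, such as A_30_P01026625, were not among them.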
